A study of Mus musculus with 8 samples.

Results

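DNA replication and mitosis are carried out by 2 sets of genes that dividing cells switch on one after the other, and 46 such genes are described here in mouse intestine and colon with and without overexpression of Nanog. They were taken by name and comprise 24 genes of S phase, when DNA is copied, and 22 genes of mitosis, when the copies are pulled apart. Every probe annotated to one of these symbols was used, 70 of the 25697 probes on the array, which covered 42 of the 46 genes. Of these 42 genes, 30 were bright enough to be tested, 18 of S phase and 12 of mitosis. Each tissue was sampled with and without Nanog overexpression, which makes 4 groups of 2 arrays, and the design text calls the arrays of a group biological replicates. Nanog encodes a homeobox factor that helps keep embryonic stem cells pluripotent, and the series title speaks of overgrowth of both tissues under it. The promoter or cell type that drove Nanog, its duration, and the strain and age of the animals are not given in the sources used here. RNA was extracted from whole samples of mixed cells, so fewer dividing cells and less of a transcript in each dividing cell cannot be told apart.

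In the gut, division takes place in the crypts, where stem cells and their fast-dividing daughters replace the lining. Before S phase, Cdc6 and Cdt1 load the ring of Mcm2 to Mcm7 onto DNA, Mcm10, Cdc45 and the GINS complex turn it into a moving helicase, and polymerases, the sliding clamp Pcna and its loader copy the strands. In mitosis, the kinase Cdk1 with its cyclins starts the process, Plk1 and the Aurora kinases build the spindle, checkpoint proteins hold the chromosomes until all are attached, and Cdc20 then starts their separation. Many S phase genes are known targets of E2F transcription factors, whereas many mitosis genes are known to be controlled through a CHR element, short for cell cycle genes homology region, next to CCAAT boxes bound by NF-Y.

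The promoters of the 3 members that passed a test below, Mcm6, Mcm10 and Nusap1, and of 2 mitotic kinase genes, Cdk1 and Plk1, are shown because they carry these motifs in different combinations. Sequences are from RefSeq on GRCm38.p6, 5′ to 3′ on the strand of the gene, from 250 bases before to 50 after the start site. Capitals mark, on either strand, an E2F site (TTTCCCGC, TTTCGCGC, TTTGCCGC or TTTGGCGC), the CHR element TTTGAA, or the CCAAT box CCAAT. The intervals are chr1:128359656-128359955, minus strand, for Mcm6; chr2:5012742-5013041, minus strand, for Mcm10; chr10:69352863-69353162, minus strand, for Cdk1; chr7:122159185-122159484, plus strand, for Plk1; and chr2:119618048-119618347, plus strand, for Nusap1.
Mcm6: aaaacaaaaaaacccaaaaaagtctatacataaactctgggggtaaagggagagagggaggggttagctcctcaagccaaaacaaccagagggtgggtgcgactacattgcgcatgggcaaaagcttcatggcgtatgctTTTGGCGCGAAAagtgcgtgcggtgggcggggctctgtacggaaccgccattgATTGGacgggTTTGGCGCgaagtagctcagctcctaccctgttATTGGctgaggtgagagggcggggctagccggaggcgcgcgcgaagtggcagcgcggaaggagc
Mcm10: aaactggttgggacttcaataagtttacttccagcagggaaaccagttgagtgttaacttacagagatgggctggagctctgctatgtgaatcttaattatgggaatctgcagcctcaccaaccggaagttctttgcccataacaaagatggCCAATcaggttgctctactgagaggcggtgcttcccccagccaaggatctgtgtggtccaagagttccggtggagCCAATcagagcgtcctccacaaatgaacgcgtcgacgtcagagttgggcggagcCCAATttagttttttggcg
Cdk1: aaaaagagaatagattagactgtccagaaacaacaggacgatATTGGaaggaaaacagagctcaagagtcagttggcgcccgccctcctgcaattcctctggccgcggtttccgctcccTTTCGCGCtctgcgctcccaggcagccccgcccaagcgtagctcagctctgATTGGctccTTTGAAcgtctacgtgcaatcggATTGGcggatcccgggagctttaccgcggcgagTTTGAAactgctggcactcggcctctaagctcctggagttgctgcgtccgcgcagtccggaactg
Plk1: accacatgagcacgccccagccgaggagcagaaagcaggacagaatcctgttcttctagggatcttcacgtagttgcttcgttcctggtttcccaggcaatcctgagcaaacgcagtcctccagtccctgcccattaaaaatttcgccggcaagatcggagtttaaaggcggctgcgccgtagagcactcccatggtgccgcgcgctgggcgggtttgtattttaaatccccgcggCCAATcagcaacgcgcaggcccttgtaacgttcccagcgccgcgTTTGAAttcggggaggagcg
Nusap1: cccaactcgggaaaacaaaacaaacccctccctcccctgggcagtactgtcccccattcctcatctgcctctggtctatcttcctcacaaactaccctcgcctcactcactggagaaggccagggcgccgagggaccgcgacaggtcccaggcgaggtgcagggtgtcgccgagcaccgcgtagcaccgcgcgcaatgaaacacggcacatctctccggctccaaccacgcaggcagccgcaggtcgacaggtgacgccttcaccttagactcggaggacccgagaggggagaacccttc

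The Mcm6 promoter held 3 E2F matches, beginning 110, 106 and 47 bases upstream of the start site, and 2 CCAAT boxes. That of Mcm10 held 3 CCAAT boxes and no match to either of the other motifs. The Cdk1 promoter held 2 CHR elements, 71 and 15 bases upstream, with 3 CCAAT boxes and 1 E2F match. Plk1 had 1 CHR element in the transcribed part and 1 CCAAT box 14 bases upstream, while in the Nusap1 window none of these letters were found.

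Promoters were matched for 38 of the 46 genes, 24 promoters of S phase genes and 19 of mitosis genes, since some genes have several start sites. Mcm4, Ccne2, Gins1, Gins2, Ccna2, Aurkb, Kif20a and Tpx2 were not matched. An E2F match lay in 8 of the 24 S phase promoters (33.3%) and in 1 of the 19 mitosis promoters (5.26%), against 2.26% of all 32851 promoters of this length. A CHR element lay in 13 mitosis promoters (68.4%) and 3 S phase promoters (12.5%), against 17.9% of all. CCAAT boxes lay in 17 mitosis promoters (89.5%) and 14 S phase promoters (58.3%), against 37.4% of all. In the members' promoters 1 pair of different motifs shared bases. These are matches of letters and say nothing about binding in these samples.

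A probe counts as above background where its detection p-value was under 0.01, which held for 10652 to 11993 probes per array and for 35 to 42 of the 70 member probes. Values below are normalized log2 intensities, in which 1 unit is a doubling, and a difference is the group with Nanog minus the group without it unless stated otherwise. A level of one probe is not compared with that of another, because probes differ in brightness for the same amount of RNA. The probe for Nanog itself was below background on all 8 arrays and checks nothing about the labels. Genes of pancreatic acinar cells set replicates apart: 14 of 17 listed genes were tested, and their mean was 5.0 and 10.43 in intestine without Nanog, 5.14 and 14.25 in intestine with Nanog, 5.08 and 6.91 in colon without Nanog, and 7.57 and 13.75 in colon with Nanog. Replicate 2 of both Nanog groups is therefore left out in an alternative below. That alternative keeps replicate 2 of intestine without Nanog, at 10.43, and leaves 1 array in each Nanog group. A call lost in it can therefore also reflect the smaller number of arrays.

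With Nanog, the tested mitosis genes had higher values and most tested S phase genes lower values in both tissues. On average of the tissues, all 12 tested mitosis genes lay above 0, with a median of 0.46 log2 units and a range of 0.23 to 1.40. Of the 18 tested S phase genes, 13 lay below 0 and 5 above. Their median was -0.39, or -0.37 with Ccne1 and Mcm3 at their bounds, and their range -1.72 to 0.51. Ccne1 and Mcm3 qualified for testing only through groups without Nanog, which favours a negative difference. Over all 8607 genes tested the median was -0.01, with 49.1% of genes above 0 and 50.9% below. In limma's moderated test, adjusted over all 8607 genes by Benjamini-Hochberg, 1 S phase gene fell on average of the tissues, Mcm6, where 0.476% of all genes tested were called lower. In the same test 1 mitosis gene rose, Nusap1, where 0.72% of all genes were called higher. The plot of all members by array shows both lists.

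**Figure D1:**
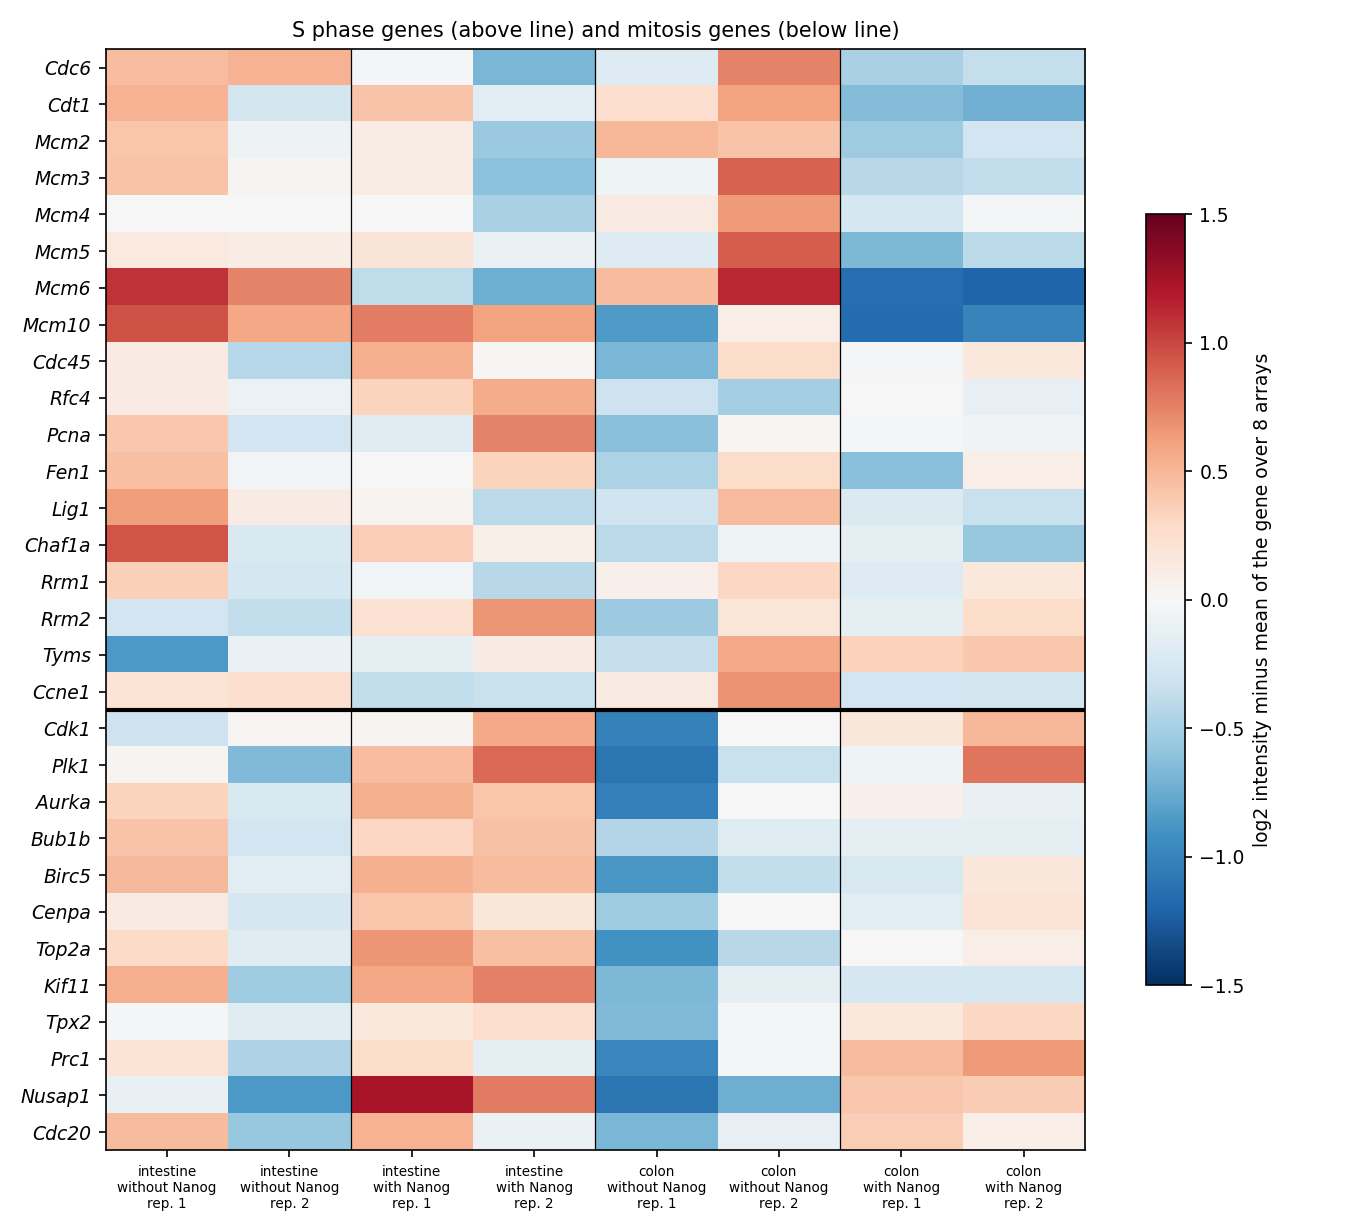
Each row is 1 of the 30 tested genes and each column 1 of the 8 arrays; colour gives the normalized log2 intensity minus the mean of the gene over the 8 arrays, with S phase genes above the thick line and mitosis genes below it. All 12 mitosis genes had their lowest value on replicate 1 of colon without Nanog, and Mcm6 and Nusap1 have the widest ranges, 2.33 and 2.34 log2 units.

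Within a single tissue no member passed the test. In intestine, where limma called 0.163% of all genes in either direction, 0 of the 18 S phase and 0 of the 12 mitosis genes were called. At an unadjusted p under 0.05 there were 1 higher and 2 lower S phase genes and 1 higher mitosis gene, where 4.39% of all genes were higher and 4.3% lower. The median difference in intestine was -0.11 over the S phase genes, 12 of which were lower, against 50.8% of all genes. Over the mitosis genes it was 0.39 with all 12 higher, against 49.2% of all genes, except that scaling the arrays to a common median left 7 higher and 5 lower. That scaling moved the median of all genes in intestine to -0.38, from -0.01, and the median of the mitosis genes to 0.02, so the list stayed above all genes. In colon, where 0.221% of all genes were called, again 0 of the 18 and 0 of the 12 passed. There 5 S phase genes were lower, against 6.89% of all genes, and 4 mitosis genes higher, against 5.59%, at an unadjusted p under 0.05. The medians were -0.45 and 0.61. Below 0 were 13 S phase genes, against 50.6% of all genes, and above 0 were all 12 mitosis genes, against 49.4%. Without replicate 1 of intestine without Nanog the S phase median in intestine was 0.06. Without replicate 2 of colon without Nanog the S phase median in colon was -0.16, and without replicate 1 it was -0.77. The mitosis median in intestine was 0.68 without replicate 1 and 0.15 without replicate 2 of intestine without Nanog. In colon it was 0.34 without replicate 1 and 0.94 without replicate 2 of colon without Nanog.

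The arrays of the groups with and without Nanog did not overlap for part of the members. In intestine both Nanog arrays were above both control arrays for 8 of 12 mitosis and 2 of 18 S phase genes, a pattern seen in 17% of all genes tested. They were below both controls for 4 S phase genes and 0 mitosis genes, against 15.5% of all genes. In colon the count above was 9 mitosis genes and 1 S phase gene, against 26.3% of all genes, and the count below was 9 S phase genes and 0 mitosis genes, against 26.6%. In both tissues at once, Cdk1, Plk1, Top2a, Tpx2 and Nusap1 of the mitosis genes and Rfc4 of the S phase genes lay above, where 7.95% of all genes did. Cdc6, Mcm6 and Ccne1 lay below in both tissues, where 6.96% of all genes did. Of the genes counted below, Ccne1 was above background only without Nanog. Mcm3, counted in colon, was above background on both arrays only of colon without Nanog. Both genes thus qualified for testing only through groups without Nanog, which favours this direction. With no detection filter the S phase median in colon was -0.21, with 6 genes higher and 16 lower.

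Of the genes that load the helicase, Cdc6, the ATPase that recruits Mcm rings to origins, had log2 levels of 6.29 and 6.35 in intestine without Nanog, 5.82 and 5.14 in intestine with Nanog, 5.64 and 6.58 in colon without Nanog, and 5.34 and 5.47 in colon with Nanog. Both Nanog arrays lay below both controls in each tissue, and the average difference of -0.77 ± 0.26 (SE, adjusted p = 0.214) did not pass the test. In intestine with Nanog, 1 of the 2 arrays had Cdc6 above background. Cdt1, its partner in loading, stood at 8.85 and 8.05 in intestine without Nanog, 8.76 and 8.16 in intestine with Nanog, 8.58 and 8.93 in colon without Nanog, and 7.68 and 7.61 in colon with Nanog. Its intestine groups overlapped and differed by 0.0075, a sign that turned under median scaling and cyclic loess, whereas both colon Nanog arrays were the lowest of the 8 arrays, with a difference of -1.11 ± 0.34 (SE, adjusted p = 0.268). The difference between these effects, -1.12 ± 0.48 (colon minus intestine), had an adjusted p of 0.998.

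Mcm6, a subunit of the ring that unwinds DNA, had the largest average difference over the tissues among the members, with levels of 9.59 and 9.25 in intestine without Nanog, 8.13 and 7.78 in intestine with Nanog, 8.98 and 9.63 in colon without Nanog, and 7.36 and 7.31 in colon with Nanog. All 4 Nanog arrays lay below all 4 arrays without Nanog. Mcm6 fell by 1.72 ± 0.21 log2 units on average of the tissues (SE, adjusted p = 0.0225). Its difference was -1.47 ± 0.29 (SE, adjusted p = 0.181) in intestine and -1.97 ± 0.29 (SE, adjusted p = 0.0746) in colon, neither past the threshold. The call on average was lost without replicate 2 of intestine with Nanog (adjusted p = 0.0777), replicate 2 of colon without Nanog (0.0917), replicate 1 of colon with Nanog (0.0986) or replicate 2 of that group (0.123). Without replicate 2 of both Nanog groups its difference was -1.62 with an adjusted p of 0.322. Among its 3 detected probes, each tested as a feature of its own, the average differences were -1.72, -1.14 and -0.91, with adjusted p = 0.0238, 0.0440 and 0.0826, and the fourth probe was below background on every array.

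**Figure D2:**
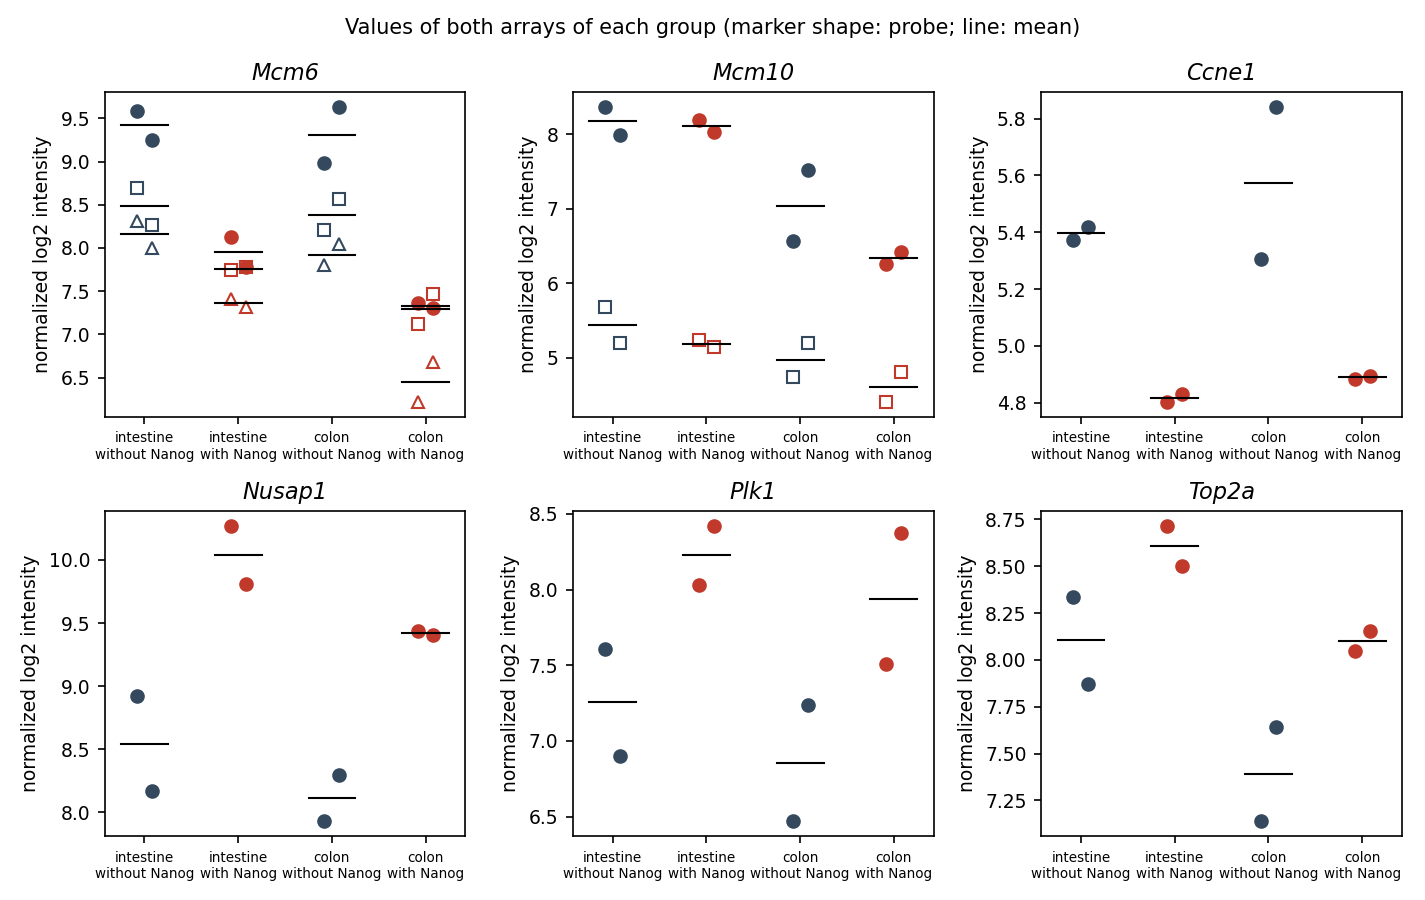
Normalized log2 intensity of 3 S phase genes (upper row) and 3 mitosis genes (lower row) on both arrays of each group, dark points without and red points with Nanog, with lines at group means; each marker shape is 1 detected probe, and each panel has its own vertical range, which does not start at 0. For Mcm6 the Nanog arrays lie below the arrays without Nanog for each of the 3 probes in each tissue, and for Nusap1, Plk1 and Top2a they lie above within each tissue.

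The other helicase subunits stood lower with Nanog on average of the tissues, though none passed the test. Mcm2 had levels of 7.01 and 6.52 in intestine without Nanog, 6.71 and 6.04 in intestine with Nanog, 7.09 and 7.01 in colon without Nanog, and 6.06 and 6.30 in colon with Nanog. In colon both Nanog arrays of Mcm2 were below both controls, with a difference of -0.87 ± 0.30 (SE, adjusted p = 0.323), while its intestine groups overlapped. The Mcm5 levels were 8.83 and 8.80 in intestine without Nanog, 8.87 and 8.58 in intestine with Nanog, 8.49 and 9.59 in colon without Nanog, and 8.01 and 8.28 in colon with Nanog, so that the groups overlapped in intestine and not in colon. Its colon difference was -0.89 ± 0.37 (SE, adjusted p = 0.386) and its intestine difference -0.087, and the difference of the effects had an adjusted p of 0.998. Mcm4 had an average difference of -0.39. Mcm3 was above background on 1 array of each intestine group and on both control arrays of colon, and below it on both Nanog arrays of colon, where it stood at least 1.37-fold lower (adjusted p = 0.460). Such a bound sets, on each array, the dim probe at no less than the lowest signal among probes above background.

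Of the genes that fire origins, Mcm10, which joins the helicase to the polymerase, had levels of 8.37 and 7.99 in intestine without Nanog, 8.19 and 8.02 in intestine with Nanog, 6.57 and 7.52 in colon without Nanog, and 6.26 and 6.42 in colon with Nanog. Every colon array lay below every intestine array. With Nanog, colon minus intestine was -1.77 ± 0.34 (SE, adjusted p = 0.0287) in limma's test. Mcm10 was thus the 1 member of 30 called lower in colon, where 3.46% of all genes were called lower, so the members do not stand out. Without Nanog the same difference was -1.14 ± 0.34 (SE, adjusted p = 0.113), which missed the threshold. The call with Nanog was lost without replicate 1 or 2 of intestine with Nanog (adjusted p = 0.0985 and 0.116) and without replicate 1 or 2 of colon with Nanog (0.181 and 0.154). It was also lost when Mcm10 was taken as the mean of its detected probes, with a difference of -1.17 and an adjusted p of 0.0710. Its second probe was above background on 4 of 8 arrays and on neither Nanog array of colon, so it gives no exact difference there. With Nanog against without, Mcm10 differed by -0.073 in intestine, where the groups overlapped, and by -0.70 ± 0.34 (SE, adjusted p = 0.462) in colon, where both Nanog arrays lay below both controls. Cdc45, the helicase cofactor, had an average difference of 0.36 (adjusted p = 0.546), and Gins1 and Gins2 were not analysed here, having no probe under these symbols.

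Genes that copy and seal the strands did not share a direction. Rfc4, a subunit of the clamp loader, had levels of 7.37 and 7.16 in intestine without Nanog, 7.58 and 7.81 in intestine with Nanog, 6.93 and 6.74 in colon without Nanog, and 7.26 and 7.13 in colon with Nanog. In each tissue the Nanog arrays of Rfc4 were the higher ones, with an average difference of 0.39 ± 0.15 (SE, adjusted p = 0.275), and in each condition both colon arrays were below both intestine arrays. Pcna, the clamp itself, differed by 0.24 on average, with a range of 1.37 log2 units over the 8 arrays and groups that overlapped in both tissues. Fen1 and Lig1, which trim and join the fragments of the lagging strand, differed by -0.10 and -0.46, and Chaf1a, which places histones on new DNA, by -0.13. The adjusted p-values of Pcna, Fen1, Lig1 and Chaf1a on average of the tissues lay between 0.385 and 0.872.

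Among the genes of nucleotide supply, Rrm2, the subunit of ribonucleotide reductase that is made in S phase, had levels of 5.28 and 5.19 in intestine without Nanog, 5.79 and 6.23 in intestine with Nanog, 5.01 and 5.74 in colon without Nanog, and 5.42 and 5.84 in colon with Nanog. Its intestine groups did not overlap and differed by 0.77 ± 0.32 (SE, adjusted p = 0.565), while the colon groups overlapped. A second probe of Rrm2 differed by 0.51 in intestine and -0.02 in colon. Tyms, thymidylate synthase, was read as 7.59 and 8.36 in intestine without Nanog, 8.31 and 8.58 in intestine with Nanog, 8.11 and 9.02 in colon without Nanog, and 8.80 and 8.86 in colon with Nanog. Its groups overlapped in both tissues with an average difference of 0.37, and its second detected probe differed by -0.14, so the probes of Tyms disagree in sign. Rrm1, the large subunit of ribonucleotide reductase, differed by -0.24.

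Ccne1, cyclin E1, which drives entry into S phase, had levels of 5.37 and 5.42 in intestine without Nanog, 4.80 and 4.83 in intestine with Nanog, 5.31 and 5.84 in colon without Nanog, and 4.88 and 4.90 in colon with Nanog. It was above background on all 4 arrays without Nanog and on none of the 4 with Nanog. It therefore stood at least 1.13-fold lower with Nanog in intestine (adjusted p = 0.565) and at least 1.45-fold lower in colon (adjusted p = 0.326), and the adjusted p on average was 0.139.

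Of the mitotic kinases, Cdk1 had levels of 6.98 and 7.32 in intestine without Nanog, 7.33 and 7.86 in intestine with Nanog, 6.28 and 7.28 in colon without Nanog, and 7.46 and 7.79 in colon with Nanog. Both Nanog arrays exceeded both controls in each tissue, and the average difference was 0.64 ± 0.27 (SE, adjusted p = 0.294). The Plk1 levels were 7.61 and 6.90 in intestine without Nanog, 8.03 and 8.42 in intestine with Nanog, 6.47 and 7.24 in colon without Nanog, and 7.51 and 8.37 in colon with Nanog. Nanog arrays were again the higher ones within each tissue, and the average difference of 1.03 ± 0.30 (SE, adjusted p = 0.161) was the second largest among the mitosis genes. Aurka, the Aurora kinase of the spindle poles, stood at 7.27 and 6.71 in intestine without Nanog, 7.47 and 7.35 in intestine with Nanog, 5.91 and 6.93 in colon without Nanog, and 7.01 and 6.83 in colon with Nanog. Its intestine groups did not overlap, its colon groups did, and the average difference was 0.46 ± 0.26 (SE, adjusted p = 0.425).

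Top2a, the topoisomerase that disentangles sister chromosomes, had levels of 8.34 and 7.87 in intestine without Nanog, 8.71 and 8.50 in intestine with Nanog, 7.14 and 7.64 in colon without Nanog, and 8.05 and 8.15 in colon with Nanog. Its Nanog arrays were above the controls in each tissue, by 0.61 ± 0.19 (SE, adjusted p = 0.195) on average. Birc5, or survivin, a subunit of the passenger complex that corrects attachments, was read as 8.44 and 7.80 in intestine without Nanog, 8.49 and 8.43 in intestine with Nanog, 7.08 and 7.58 in colon without Nanog, and 7.72 and 8.13 in colon with Nanog. In colon its 2 Nanog arrays were above both controls, in intestine the groups overlapped, and its 3 detected probes had average differences of 0.47, 0.76 and 0.84. Cenpa, the histone variant of centromeres, and Bub1b, a checkpoint protein, differed on average by 0.32 and 0.23, with adjusted p = 0.466 and 0.589. In intestine the values of Birc5, Bub1b, Cdc20, Cenpa and Prc1 changed sign when arrays were scaled to a common median.

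Nusap1, a protein that bundles spindle microtubules near chromosomes, had levels of 8.92 and 8.17 in intestine without Nanog, 10.27 and 9.81 in intestine with Nanog, 7.93 and 8.30 in colon without Nanog, and 9.44 and 9.41 in colon with Nanog. All 4 Nanog arrays lay above all 4 arrays without Nanog. Nusap1 rose by 1.40 ± 0.23 log2 units on average of the tissues (SE, adjusted p = 0.0431), with 1.50 ± 0.32 (SE, adjusted p = 0.200) in intestine and 1.31 ± 0.32 (SE, adjusted p = 0.188) in colon. It missed the threshold without replicate 1 or 2 of intestine with Nanog (adjusted p = 0.0893 and 0.0900), of colon without Nanog (0.165 and 0.151) or of colon with Nanog (0.175 and 0.191), and without replicate 2 of both Nanog groups (0.357). It also missed it with the authors' normalized values (0.0606), with median scaling (0.161) and with no detection filter (0.0900). A single probe carries this result, because the other 2 probes of Nusap1 were below background on every array.

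Among the spindle motors and microtubule proteins, Prc1, which bundles the central spindle, had levels of 9.37 and 8.71 in intestine without Nanog, 9.43 and 9.03 in intestine with Nanog, 8.19 and 9.14 in colon without Nanog, and 9.64 and 9.80 in colon with Nanog. Its intestine groups overlapped, its colon Nanog arrays were the highest of all 8 arrays, and the colon difference was 1.06 ± 0.38 (SE, adjusted p = 0.336). The motor Kif11, which pushes the spindle poles apart, was read as 6.39 and 5.31 in intestine without Nanog, 6.42 and 6.60 in intestine with Nanog, 5.17 and 5.70 in colon without Nanog, and 5.60 and 5.58 in colon with Nanog. Its 4 colon arrays lay within 0.53 log2 units of each other, and with Nanog its colon arrays were below its intestine arrays, with a difference of -0.92 ± 0.38 (SE, adjusted p = 0.211). Tpx2, an activator of Aurora A, differed by 0.44 ± 0.19 (SE, adjusted p = 0.304) on average, with groups that did not overlap in either tissue. Cdc20, the activator of the anaphase-promoting complex, differed by 0.45 on average, and its 4 detected probes by 0.30 to 0.45.

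**Figure D3:**
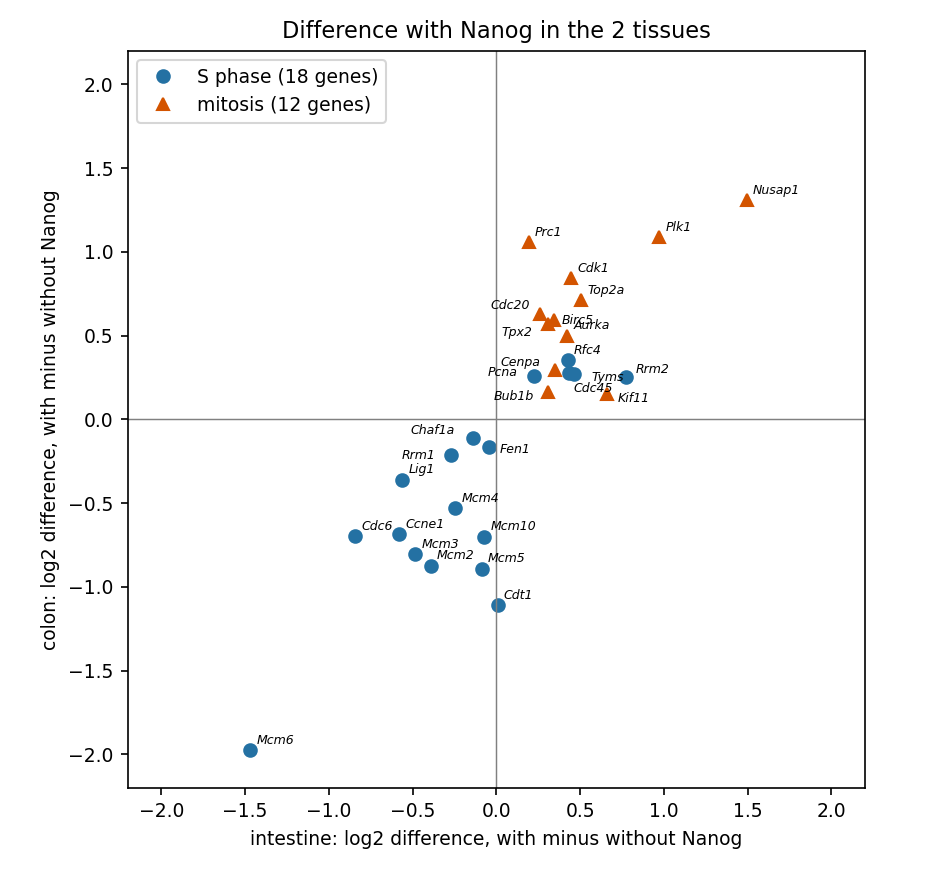
Each point is 1 tested member, S phase genes as circles and mitosis genes as triangles; the horizontal axis gives the log2 difference with minus without Nanog in intestine and the vertical axis the same in colon, from 4 arrays each with none in common. All 12 mitosis genes lie above 0 on both axes with these values, though 5 of them fall below 0 in intestine under median scaling, and Mcm6 and Nusap1 lie farthest from the origin.

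The effects of Nanog in the 2 tissues were compared directly, as colon minus intestine. In this test limma called 0% of all genes, and 0 of the 30 members had an unadjusted p under 0.05, as 4.19% of all genes did. The median of this difference was -0.18 over the S phase genes and 0.16 over the mitosis genes. Both signs turned when single arrays were left out, and that of the S phase genes also turned under median scaling.

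The mean of each list was also followed on every array. For the 18 S phase genes it was 7.43 and 7.10 in intestine without Nanog, 7.20 and 7.01 in intestine with Nanog, 6.90 and 7.51 in colon without Nanog, and 6.72 and 6.83 in colon with Nanog. For the 12 mitosis genes it was 7.91 and 7.34, 8.17 and 8.11, 6.87 and 7.50, and 7.76 and 7.92 in the same order. With these values the mitosis means did not overlap between groups in either tissue, whereas the S phase means overlapped in intestine. Scaling the arrays to a common median made the mitosis means overlap in intestine too. After that scaling the 2 controls stood at 8.11 and 7.41, while 8.14 and 7.56 were found on the Nanog arrays. Before that scaling, the spread between replicates was large beside the shifts of the list means with Nanog. Replicates differed by up to 0.63 in the mitosis mean and 0.62 in the S phase mean. Both were found in colon without Nanog, where replicate 1 was the lower in both lists.

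The S phase mean minus the mitosis mean was also taken within each array. This measure was not planned and combines the list means just given, so it is no separate evidence. In intestine the controls had -0.48 and -0.24 and the Nanog arrays -0.98 and -1.10. In colon the controls had 0.03 and 0.01 and the Nanog arrays -1.04 and -1.09. The absolute value of this difference depends on the probes, so only its change between arrays can be read, and that change was -0.68 in intestine and -1.09 in colon. Groups with and without Nanog did not overlap in either tissue under any of the 6 ways of scaling tried, with changes of -0.50 to -0.81 in intestine and -0.78 to -1.28 in colon.

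**Figure D4:**
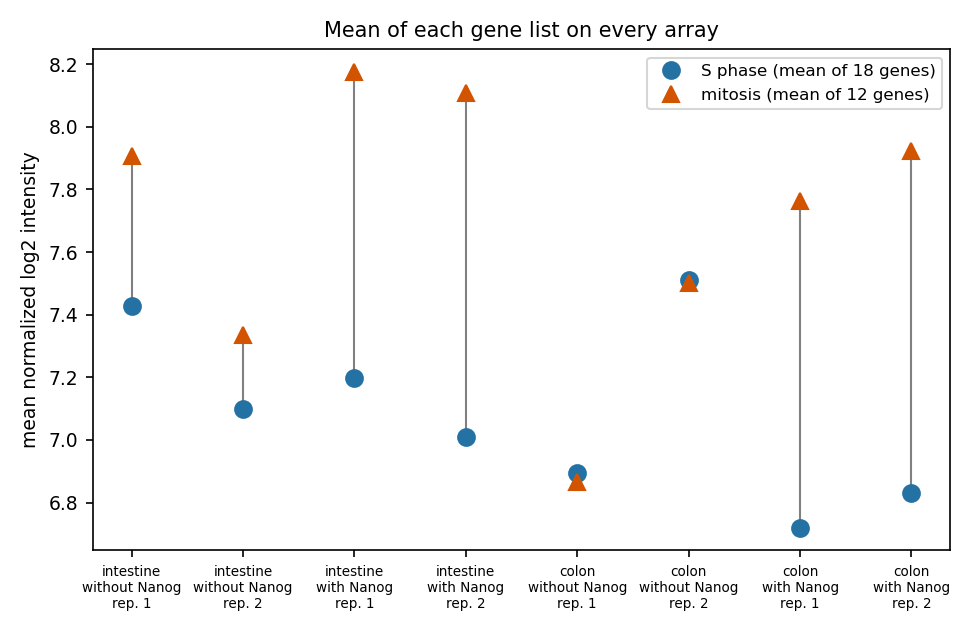
Mean normalized log2 intensity of the 18 tested S phase genes (circles) and the 12 tested mitosis genes (triangles) on each of the 8 arrays, with a line joining the 2 means of an array; the vertical axis does not start at 0, and only the change in line length between arrays is comparable, since probes differ in brightness. The line is longer on all 4 Nanog arrays, where the S phase mean lies 0.98 to 1.10 below the mitosis mean, than on the 4 arrays without Nanog, where the difference runs from -0.48 to 0.03.

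Colon was also set against intestine. These comparisons share arrays with those of Nanog, so they are not independent of them. Without Nanog, limma called 5.5% of all genes in either direction and 0 of the 30 members, with 1 S phase and 2 mitosis genes lower in colon at an unadjusted p under 0.05, against 8.8% of all genes. All 12 mitosis genes had lower values in colon, with a median of -0.39, against 41.4% of all genes. The S phase genes split into 9 higher, against 58.6% of all genes, and 9 lower, with a median of 0.04, and the median of all genes was 0.11. The mitosis median was -0.05 without replicate 1 and -0.78 without replicate 2 of intestine without Nanog. It was -0.73 without replicate 2 of colon without Nanog. All 12 mitosis genes had their lowest value on replicate 1 of colon without Nanog. On replicate 2 of that group the mitosis mean was 7.50, between the 7.91 and 7.34 of intestine without Nanog. There Cdk1, Cenpa, Tpx2 and Prc1 stood above their means in intestine without Nanog, and the other mitosis genes below. Top2a and Birc5 had the largest mitosis differences with unadjusted p under 0.05, -0.72 ± 0.27 (SE, adjusted p = 0.194) and -0.79 ± 0.31 (SE, adjusted p = 0.211). Both colon arrays lay below both intestine arrays for 2 mitosis and 2 S phase genes, against 17.9% of all genes, and above them for 0 mitosis and 2 S phase genes, against 30.2%. With Nanog, 6.65% of all genes were called, and apart from Mcm10 none of the 30 members was. The S phase median was then -0.26, with 4 higher and 14 lower, the mitosis median -0.39, with 4 higher and 8 lower, and that of all genes 0.10, with 57.8% of genes higher and 42.2% lower. Both colon arrays lay below both intestine arrays for 6 mitosis and 6 S phase genes, against 23.6% of all genes, and above them for 1 and 2, against 35.1%. Of these 2 S phase genes, Ccne1 was below background on every Nanog array, so its separation by 0.07 cannot be read. Median scaling brought the S phase and mitosis medians with Nanog to 0.02 and -0.004.

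Other cell cycle genes were taken from further lists, which hold no member. Of the 12 tested genes of G1 to S control, 0 were called in limma's test on average of the tissues and 6 were lower at an unadjusted p under 0.05, against 8.7% of all genes. All 12 had negative differences, with a median of -0.56. The smallest p among them was that of E2f2, an activating E2F factor, with levels of 8.42 and 7.69 in intestine without Nanog, 7.71 and 6.35 in intestine with Nanog, 7.34 and 7.88 in colon without Nanog, and 5.35 and 5.18 in colon with Nanog. Its arrays with Nanog lay below those without it in colon and overlapped in intestine, and its average difference was -1.68 ± 0.34 (SE, adjusted p = 0.0750). Cyclins D1 and D2, encoded by Ccnd1 and Ccnd2 and chosen after their values were seen, differed by -1.52 and -1.33, with adjusted p = 0.188 and 0.140.

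Of 31 tested further spindle, kinetochore and chromosome genes, 0 were called on average of the tissues and 14 were higher at an unadjusted p under 0.05, against 7.84% of all genes. In all 29 had positive and 2 negative differences, with a median of 0.50, or 0.45 with genes below background at their bounds. The smallest p was that of Spc25, a subunit of the kinetochore complex that grips microtubules, with levels of 5.75 and 6.44 in intestine without Nanog, 7.02 and 6.94 in intestine with Nanog, 5.57 and 6.10 in colon without Nanog, and 7.27 and 7.25 in colon with Nanog. Its Nanog arrays were above the controls in each tissue, with an average difference of 1.16 ± 0.21 (SE, adjusted p = 0.0653). In this list Cdc25a, the phosphatase that activates cyclin-dependent kinases, was lower in colon than in intestine with Nanog, with a difference of -1.73 ± 0.28 (SE, adjusted p = 0.0151) that passed limma's test. It was 1 of the 31 genes, where 3.46% of all genes were called lower, so the list does not stand out.

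The remaining lists lay closer to 0, and none of their genes was called on average of the tissues. Of 20 further genes of the replication fork and nucleotide supply, 7 were higher and 13 lower, with a median of -0.16, and at an unadjusted p under 0.05 there were 1 higher and 3 lower. Here Rpa3, a subunit of the protein that coats single-stranded DNA, had the smallest p, with 0.68 ± 0.17 (SE, adjusted p = 0.124). Of 6 origin licensing genes 5 were higher, with a median of 0.22 and 1 at an unadjusted p under 0.05, Orc5, a subunit of the origin recognition complex, at 0.45 ± 0.14 (SE, adjusted p = 0.194). The 5 tested inhibitors of cyclin-dependent kinases had a median of 0.07 with none at an unadjusted p under 0.05, and Cdkn2c had the smallest p, at 0.43 ± 0.19 (SE, adjusted p = 0.315).

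**Figure D5:**
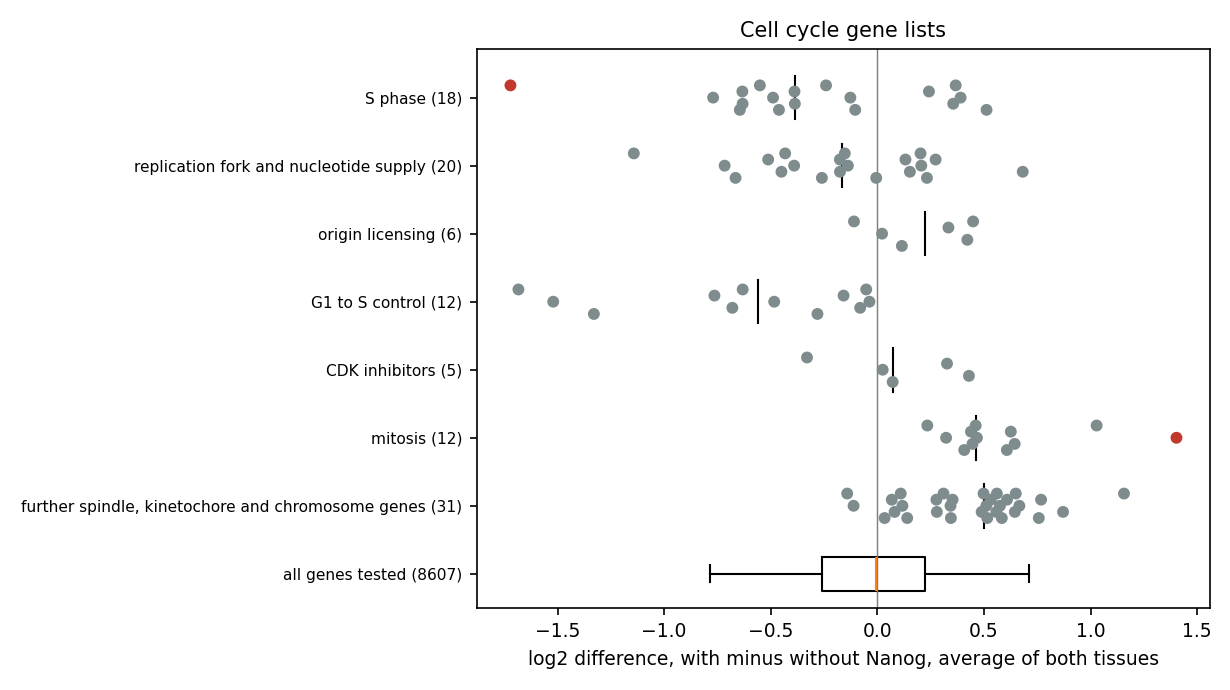
Log2 difference with minus without Nanog, average of both tissues, for each tested gene of the 7 cell cycle lists, with short vertical lines at list medians and genes past limma's adjusted threshold in red; the box shows the quartiles of all 8607 genes tested and its whiskers their 5th and 95th percentiles. The mitosis and further spindle lists have medians of 0.46 and 0.50, and the S phase and G1 to S lists of -0.39 and -0.56.

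The promoter matches were set beside the differences. Of the 17 tested S phase genes with a promoter, the 6 with an E2F match, Cdc6, Cdt1, Lig1, Mcm3, Mcm5 and Mcm6, all had negative average differences, with a median of -0.60. The 11 without a match split into 5 positive and 6 negative, with a median of -0.10. Mcm10 counts among these, although its window ends on TTTGGCG, the start of the E2F word TTTGGCGC. Among the mitosis genes the 9 with a CHR element had a median of 0.46, and the 2 without one, Birc5 and Nusap1, were also positive. These are descriptions of few genes, with no test.

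Markers of cell types also differed between the arrays with and without Nanog, and their part in the results was not tested. Of 10 listed epithelial markers 9 were tested, with means of 11.90 and 11.48 in intestine without Nanog, 11.58 and 10.98 in intestine with Nanog, 11.65 and 11.66 in colon without Nanog, and 11.32 and 11.17 in colon with Nanog. On average of the tissues all 9 had negative differences, with a median of -0.48, beside -0.39 for the S phase and 0.46 for the mitosis genes. In colon alone 2 of the 9 were higher with Nanog. The mean of 6 tested crypt stem cell markers of 8 listed was 6.98 and 7.59 in intestine without Nanog, 6.74 and 6.45 with Nanog, 6.33 and 6.03 in colon without Nanog, and 5.45 and 5.50 with Nanog, with Lgr5 and Smoc2 not tested. The mean of 6 B and plasma cell markers of 10 listed was 6.60 and 6.16, 5.99 and 5.11, 7.86 and 6.84, and 5.31 and 5.13 in the same order. The means of both lists were thus lower on the Nanog arrays in each tissue. Of the crypt stem cell markers, 5 were lower on average of the tissues, while Olfm4 was higher by 0.22, with 0.45 in intestine and -0.01 in colon. All 6 B and plasma cell markers were lower, and Mzb1 was called lower in limma's test in colon (adjusted p = 0.0212) and on average (0.0157). In the test on average 0.476% of all genes were called lower. The mean of the 7 fibroblast markers ran the other way, at 7.51 and 8.32, 9.20 and 8.43, 8.85 and 9.14, and 10.37 and 10.59 in the same order. Of these 7, 6 were higher on average of the tissues and Pdgfra was lower, by -0.02. Limma's test on average called 3 of them higher, Col1a1 (adjusted p = 0.0347), Col1a2 (0.0429) and Sparc (0.0423), where 0.72% of all genes were called higher. For T cells, 4 of 10 markers were tested, with means of 6.74 and 6.44, 6.34 and 7.0, 6.59 and 5.42, and 4.69 and 4.66, so the groups overlapped in intestine and not in colon. The 2 tested red cell markers of 7 listed had means of 7.41 and 6.66, 8.45 and 9.93, 8.02 and 6.51, and 8.38 and 8.37, higher on the Nanog arrays in each tissue. The mean of 6 myeloid markers of 9 listed ran from 6.48 to 9.18 over the arrays and that of the 7 smooth muscle markers from 10.23 to 11.03. Markers of the labelled tissues set the arrays apart: 6 genes of small-intestinal absorptive cells of 10 listed had means of 12.25 to 13.35 in intestine and 5.20 to 6.17 in colon, and 5 colonocyte genes of 7 had means of 5.32 to 5.77 in intestine. In colon the colonocyte means were 9.83 and 10.16 without Nanog and 11.33 and 11.27 with Nanog. Of the 5 genes, 3 were higher with Nanog there and 2 lower. Best2, a bestrophin channel, and Fxyd4, a regulator of the sodium pump, were called higher, by 3.44 and 3.23 (adjusted p = 0.00531 for each). In that test limma called 0.221% of all genes. Scnn1b differed by 2.48 (adjusted p = 0.0792), Car4 by -1.29 (0.795) and Aqp8 by -1.35 (0.531), none past the threshold.

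The 12 members with a probe that were not tested were Mcm7, Ccne2, Pola1 and Prim1 of S phase and Ccnb2, Ccna2, Bub1, Ube2c, Cenpe, Kif20a, Nek2 and Ttk of mitosis. Mcm7, a further helicase subunit, was above background on 3 of 8 arrays, but not on both of any group. The 11 others were above background on none, so their levels were not detectable with these probes. The mitotic cyclin Ccnb1 and the kinase Aurkb were, like Gins1 and Gins2, not analysed here. Of the 22 mitosis genes, the tested ones therefore leave out cyclins A2, B1 and B2.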

How the data were processed

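Per the labels, total RNA was turned into biotin-labelled cRNA and hybridized to Illumina bead arrays, 8 in all and 2 in each of 4 groups. Per the submitters' processing notes, BeadStudio 3.2, RMA and lumi were used, and their order and settings are not stated. The non-normalized deposited table gives for each of 25697 probes a mean bead intensity, and beside it a detection p-value. The deposited normalized table, used as an alternative, holds log2 values with the same median on all 8 arrays that rank probes as the intensities do.

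The background of the intensities was modelled with normexp in limma 3.58.1 (R 4.3.3), using an offset of 16 and negative controls deduced from detection, before a log2 transform and then quantile normalization. A probe was kept where some group had it detected (p under 0.01) on its 2 arrays, which left 12064, and each of 8607 genes was read from its brightest probe, by mean. Names came from the platform annotation, updated to the RefSeq symbol of the same gene identifier where there was one, which left the member probes unchanged. Left out were 1719 probes with several genes or none. A mean per group was fitted to the 8 arrays (4 residual and 3.07 prior degrees of freedom, prior SD 0.292), so each SE rests on a spread pooled over the groups, and a call needs a p under 0.05 after Benjamini-Hochberg adjustment over those 8607 genes. The steps were tested on simulated data. The number of arrays limits the precision of every value.

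The members, the other lists, the promoter motifs and the tests were chosen with earlier results of these data known. Every array's values are given for members called in any comparison and for the 3 members of each list with the smallest p in each comparison; of other lists, the called gene and the smallest p on average of the tissues are named. The alternatives were other background corrections and scalings, other filters, probes and fits, array weights, the replicate number as a block, and arrays left out.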

Additional observations from a re-analysis of the deposited data

How the results depend on the processing

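Over all alternatives, 1210 values held and 96 did not. The value of a gene held where it kept its direction and its side of the threshold. A median or a difference of list means held where it moved by less than the spread between replicates. A count of called members held where it stayed equal or close to the count of the main fit. On average of the tissues 1 member was called under median scaling, with the authors' values and with no detection filter, and 0 without replicate 2 of both Nanog groups, against 2 in the other fits to all 8 arrays. In colon 2 members were called with array weights (Mcm6, adjusted p = 0.0129, and Nusap1, 0.0422) and 1 with only the arrays compared (Mcm6, 0.0403). With Nanog, colon against intestine called 0 members under median scaling, no filter, the mean of probes, and without replicate 2 of both Nanog groups. Leaving out single arrays gave 0 to 2 calls on average and 0 to 1 between the tissues with Nanog.

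Under median scaling the S phase median was -0.55 in intestine, -0.62 on average, 0.21 for colon minus intestine and 0.021 between tissues with Nanog, and the mitosis median 0.016, 0.31, 0.60 and -0.0044. The S phase median in colon was -0.26 without background correction, -0.21 with no filter and -0.21 over genes detected on all 8 arrays, and on average it was -0.21 with no filter. The mitosis median between tissues with Nanog was -0.033 with no filter. Without replicate 2 of both Nanog groups the S phase median was -0.41 for colon minus intestine and -0.48 between tissues with Nanog. Leaving out single arrays, the S phase median ran from -0.34 to 0.064 in intestine, -0.77 to -0.16 in colon, -0.57 to -0.20 on average, -0.52 to 0.16 for colon minus intestine and -0.33 to 0.26 between tissues without Nanog, and the mitosis median in the last 2 from -0.19 to 0.50 and -0.78 to -0.051. The cause was not tested.

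Signs turned for values that passed no test. Mcm10 in intestine was 0.0092 without replicate 2 of both Nanog groups, and from -0.26 to 0.11 with single arrays left out. For colon minus intestine, Mcm6 was 0.099 and Nusap1 0.33 under median scaling, and with single arrays left out Nusap1 ran from -0.56 to 0.19, Kif11 from -1.05 to 0.029 and Cdk1 from -0.10 to 0.90. Mcm6 between tissues without Nanog ran from -0.44 to 0.21.

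Samples share only a replicate number. Deviations of same-numbered arrays correlated at 0.113 to 0.468 between groups, and in a fit with a replicate block 2 members were called on average, Mcm6 (adjusted p = 0.0288) and Nusap1 (0.0414), and no member's call changed. Probes near background limit Ccne1, Mcm3 and the untested members.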

Other observations

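The arrays on which members peaked differed between the lists. Of the 12 tested mitosis genes, 6 were highest on replicate 1 and 4 on replicate 2 of intestine with Nanog, and 2 on replicate 2 of colon with Nanog. Of the 18 S phase genes, 8 were highest on replicate 2 of colon without Nanog and 5 on replicate 1 of intestine without Nanog. The lowest value of S phase genes was spread over 7 arrays, with 6 genes lowest on the dimmest array, replicate 2 of the intestine group with Nanog, whose median signal was 84.6 against 96.2 to 107.7 on the others. By contrast the lowest value of every tested mitosis gene was on replicate 1 of colon without Nanog, which had a median signal of 102.3 and the most probes above background, 11993.

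Further S phase genes stood on the same side as the helicase genes without passing limma's test. Uhrf1, which carries DNA methylation over to new strands, differed by -1.14 on average of the tissues (adjusted p = 0.128), and Dut, which keeps uracil out of DNA, by -0.72 (adjusted p = 0.160). Ndc80, which forms the kinetochore complex with Spc25, differed by 0.87 (adjusted p = 0.129), and Anln, an actin-binding protein of the cleavage furrow, by 0.65 (adjusted p = 0.140). These genes were chosen after their values were seen.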
